A study of Mus musculus with 6 samples.

Results

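The genes described here are the mRNA surveillance and RNA degradation genes of mouse microglia, the resident macrophages of the brain. They were measured in control mice and in mice with a conditional knockout of Nus1. They were taken from the deposited expression table as the rows whose KEGG pathway annotation names the mRNA surveillance pathway or RNA degradation. Rows also annotated to the spliceosome, nucleocytoplasmic transport, ribosome biogenesis, the cell cycle or amino acid synthesis were set aside. Of 4656 rows, 77 carried either pathway name and 49 were kept, 25 from mRNA surveillance alone, 22 from RNA degradation alone and 2 from both. This annotation rule uses no measured value, though it was set with earlier results of these data known. The deposited table holds only rows whose q-value, as the authors computed it from the same libraries, is under 0.05. Thus each of the 49 genes had already been called before it could be chosen. A pathway gene without a row is of unknown level and change here.

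The study compared 3 libraries from Nus1fl/fl mice (Ctrl), whose Nus1 gene is flanked by recombination sites, with 3 from mice labelled Nus1cKO, a conditional knockout (cKO). The product of Nus1 is a subunit of the enzyme that makes dolichol, the lipid carrier of N-glycan assembly. Per the labels' protocols, mice received 100 mg/kg tamoxifen intraperitoneally for 5 days, beginning at postnatal day 28. Flow cytometry was used to isolate microglia from brains collected 30 days after dosing ended. The labels describe both groups with one protocol. They name no Cre driver and do not state if Ctrl mice carried a Cre. Culture in serum-containing medium is described too, without stating that it preceded sequencing.

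Cells dispose of messenger RNA by a few linked routes. Translation ends at a stop codon through release factors, and a stop codon in the wrong place can trigger nonsense-mediated decay, a surveillance route in which the helicase UPF1 is phosphorylated and later dephosphorylated by protein phosphatase 2A (PP2A). Ordinary turnover starts with shortening of the poly(A) tail by the CCR4-NOT complex. The cap is then removed and the RNA is degraded from its 5′ end, or the RNA exosome degrades it from its 3′ end. The tail itself is made in the nucleus by the cleavage and polyadenylation machinery, which KEGG places in the surveillance pathway. These genes are active in most cell types, and their products act as subunits of shared complexes.

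The libraries were of similar size. The reads in the table came to between 10786150 and 11033144 per library. These genes held 2.17% to 2.19% of those reads in Ctrl and 2.08% to 2.11% in cKO. A single member had between 289 and 45504 reads in a library, with a median of 2181.5. Nus1 itself was at 59.8 ± 0.902 TPM in Ctrl and 13.9 ± 0.252 TPM in cKO (SD, n = 3 each). TPM is a gene's share of the transcripts of a library, scaled to gene length. Of 10 microglia markers 4 had a row (Cx3cr1, Csf1r, Itgam and C1qa), with a summed level of 264 to 291 TPM in Ctrl and 274 to 285 TPM in cKO; 3 of them were called lower and 1 higher. Markers of border-associated macrophages had 4 rows of 10 (Mrc1, Ms4a7, Folr2 and Clec12a). They summed to 61.6 to 77.7 TPM in Ctrl and 36.3 to 41.2 TPM in cKO, and all 4 were lower. Of 9 monocyte markers 4 had a row (Ly6c2, S100a4, Ms4a4c and Ms4a6c). Their sum was 2786 to 2927 TPM in Ctrl and 2224 to 2478 TPM in cKO, and 3 were lower. For 8 astrocyte markers, 3 rows (Aldh1l1, Clu and Cpe) summed to between 219 and 225 TPM in Ctrl. In cKO they summed to between 283 and 287 TPM, with 2 higher and 1 lower. The single markers' levels are not given here, so a sum may rest mainly on a single abundant gene. The 1 row of 6 endothelial markers, Pecam1, was higher at 0.51 to 0.78 TPM in cKO than at 0.15 to 0.42 TPM in Ctrl. None of 6 neuronal and none of 6 oligodendrocyte markers had a row. The part that these differences play in the values below was not tested. In bulk RNA, fewer cells of a type and less RNA per cell cannot be told apart.

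Most of these genes were lower in cKO than in Ctrl, mainly by small amounts. Of the 49 genes, 41 were lower and 6 were higher in cKO, and 2 did not pass (edgeR quasi-likelihood test, adjusted p under 0.05). Across all 4641 tested rows 50.2% were called lower and 46.4% higher, and 96.7% were called in either direction, so that being called says nothing about these genes and the direction is what differs. Their median log2 fold change, cKO over Ctrl, was -0.16, a decrease of 10.7%, beside -0.08 over all tested rows. All tested rows had 2486 values below 0 and 2155 above it, so their median is not the size of a typical decrease. The lower quartile was -0.21 for the 49 genes and -0.21 for all tested rows, and the upper quartiles were -0.09 and 0.34. The decreases that passed ranged from -0.07 to -0.58 and the increases from 0.16 to 0.44. In 46 of the 49 genes the CPM values (reads scaled to library size) of the groups did not overlap, beside 96.7% of all rows. Only Exosc6, 1 of the 49 genes, moved by 0.5 or more on the log2 scale, beside 18.2% of all rows that were called and moved that far. The number called lower was 27 with DESeq2, 31 with RLE size factors and 28 with upper-quartile scaling. It was 40 with library-size scaling and 43 with the authors' size factors. Over all rows, the numbers called lower were 1510, 1870, 1730, 2270 and 2486 in the same order. DESeq2 called 2168 rows higher, and each of the other scalings called 2155 higher. The 43 values below 0 and 6 above it kept their sign under every scaling tried; a scaling moves all genes together, and Cpsf6 and Ddx6 came to 0.00 with upper-quartile scaling.

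**Figure D1:**
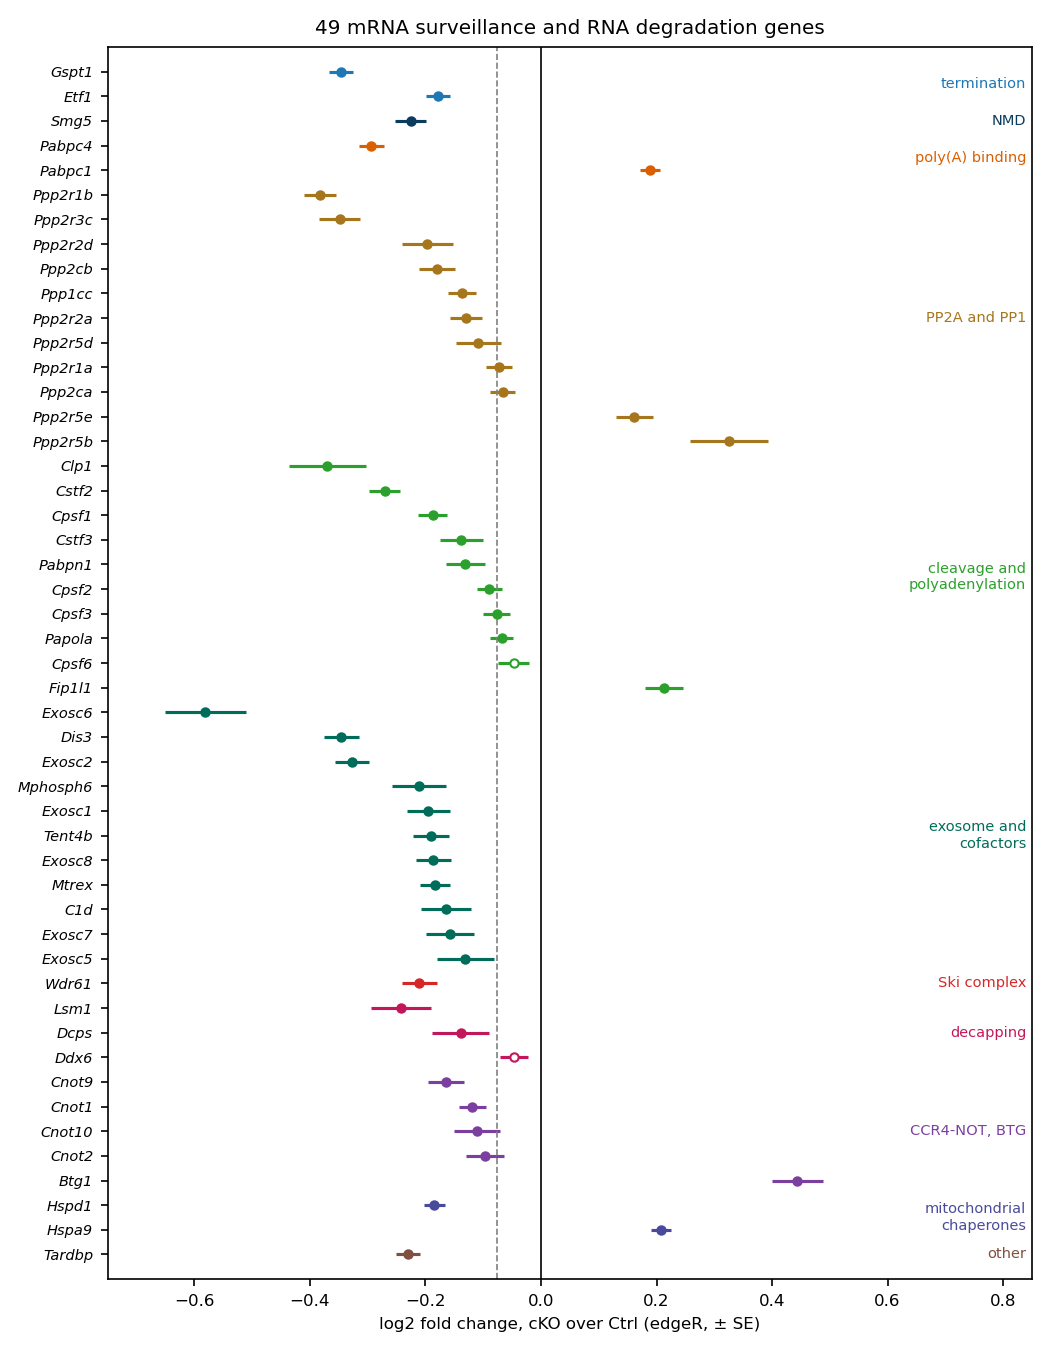
Log2 fold change of each of the 49 genes, cKO over Ctrl (x axis), with its SE as a bar, ordered by role (y axis); filled points passed the edgeR test and open points did not. The solid line marks 0 and the dashed line the median of all tested rows, -0.08; 43 points lie below 0 and the 6 above it are Btg1, Ppp2r5b, Fip1l1, Hspa9, Pabpc1 and Ppp2r5e.

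The shift was of similar size in every cKO library. The median deviation of the 49 genes from their Ctrl mean was -0.17 in cKO replicate 1, -0.18 in cKO replicate 2 and -0.17 in cKO replicate 3 on the log2 CPM scale. Over all tested rows the median deviation was -0.07, -0.06 and -0.06 in the same libraries. In each cKO library 43 genes were below their Ctrl mean, and in the Ctrl libraries 23, 21 and 32 were. The rows were selected on these same libraries, and in 96.7% of all tested rows the groups did not overlap on CPM. The repeat of this count across the cKO libraries is therefore no separate support. Over the deposited rows the replicates of a group were close to each other. The mean chi-square of their counts per gene, which is 1 for sampling noise alone, was between 1.31 and 2.18. As these rows were selected on the same libraries, this does not describe the spread over all genes. The labels call the libraries biological replicates without tying each to an animal, so the p-values cover the spread among these libraries and nothing wider.

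**Figure D2:**
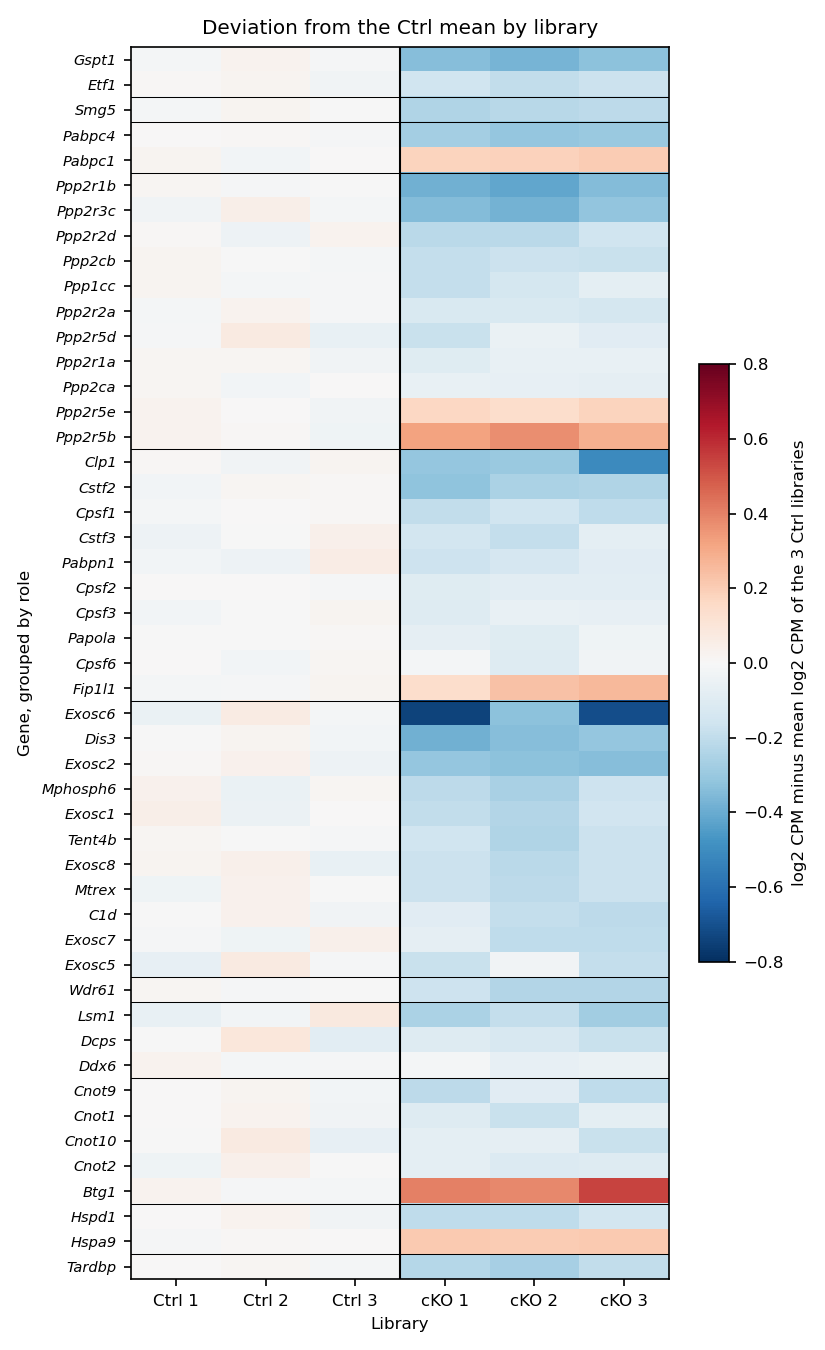
Log2 CPM of each gene (rows, grouped by role) in each library (columns) minus the mean log2 CPM of that gene in the 3 Ctrl libraries; blue is lower and red is higher. The cKO columns are blue for 43 genes and red for 6, and Exosc6 is paler in cKO replicate 2 than in the other two cKO libraries.

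The release factor genes with a row, Gspt1 and Etf1, were both lower. Gspt1 encodes eRF3a, the GTPase that works with eRF1 to end translation. It was at 129, 132 and 130.2 TPM in the Ctrl libraries and at 101, 101 and 102 TPM in the cKO libraries. All 3 cKO libraries lay below all 3 Ctrl libraries, with a gap far wider than the spread within either group. Here and for the genes below, such separation is not particular to the gene. The groups did not overlap on CPM in 96.7% of all tested rows, which were selected on these libraries. The mean fell from 130.3 ± 1.23 to 101 ± 0.425 TPM (SD, n = 3 each), a log2 fold change of -0.35 ± 0.02 (SE; edgeR, adjusted p = 7.1e-17). Its gene (ENSMUSG00000062203) spans 11034104 to 11072189 of chromosome 16, minus strand, in mm39. With 3 libraries a side, the two-sided exact permutation test on CPM gave p = 0.1, the smallest this design allows, for Gspt1 and 46 of the 49 genes in all, and 0.2 for the rest. Etf1, which encodes eRF1 itself, fell less, by 0.18 ± 0.02, from 223 to 195 TPM. The share of Gspt1 in the summed TPM of the pair was 36.9% ± 0.356 in Ctrl and 34.2% ± 0.190 in cKO (SD, n = 3 each). Gspt2, Pelo and Hbs1l, the other listed termination and ribosome rescue genes, had no row.

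Nonsense-mediated decay had a single member. Smg5, which helps return UPF1 to its unphosphorylated form, fell by 0.23 ± 0.03 (SE), from 58.7 ± 0.523 to 49.6 ± 0.901 TPM. The central factors of this route are annotated to nucleocytoplasmic transport as well and so were set aside; of these, Upf1 fell by 0.25 and Upf3b by 0.29, and Upf2 was at -0.10 and did not pass (edgeR, adjusted p = 0.0535). Tardbp encodes TDP-43, a nuclear RNA-binding protein that keeps cryptic exons out of mRNA. It was at 106, 106 and 105 TPM in Ctrl and at 88.7, 88.1 and 90.3 TPM in cKO, with no overlap. Its log2 fold change was -0.23 ± 0.02 (SE; edgeR, adjusted p = 1.1e-11).

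The cytoplasmic poly(A)-binding proteins moved in opposite directions. Pabpc4 was at 194, 193 and 193 TPM in the Ctrl libraries and at 157, 157 and 154 TPM in the cKO libraries. Pabpc1, the more abundant paralog, which coats the poly(A) tail and promotes translation, was at 1477, 1425 and 1456 TPM in Ctrl and at 1621, 1643 and 1651 TPM in cKO. The groups overlapped for neither gene, and the order of the groups was reversed between them. Pabpc4 fell by 0.29 ± 0.02 on the log2 scale (edgeR, adjusted p = 2.7e-14) and Pabpc1 rose by 0.19 ± 0.02 (adjusted p = 4.7e-12). Pabpc4 made up 11.7% ± 0.150 of their summed TPM in Ctrl and 8.70% ± 0.174 in cKO (SD, n = 3 each), and this share, unlike the level of either gene, does not depend on how the libraries are scaled. Both genes lie within families with close copies, Pabpc1 with processed copies elsewhere in the genome, so reads could have been assigned to the wrong copy and the separate values carry that uncertainty, as do those of Gspt1, Hspd1 and the paralogous PP2A genes. Pabpc4 (ENSMUSG00000011257) is on chromosome 4 from 123172722 to 123192718, plus strand, and Pabpc1 (ENSMUSG00000022283) on chromosome 15 from 36595902 to 36609825, minus strand.

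**Figure D3:**
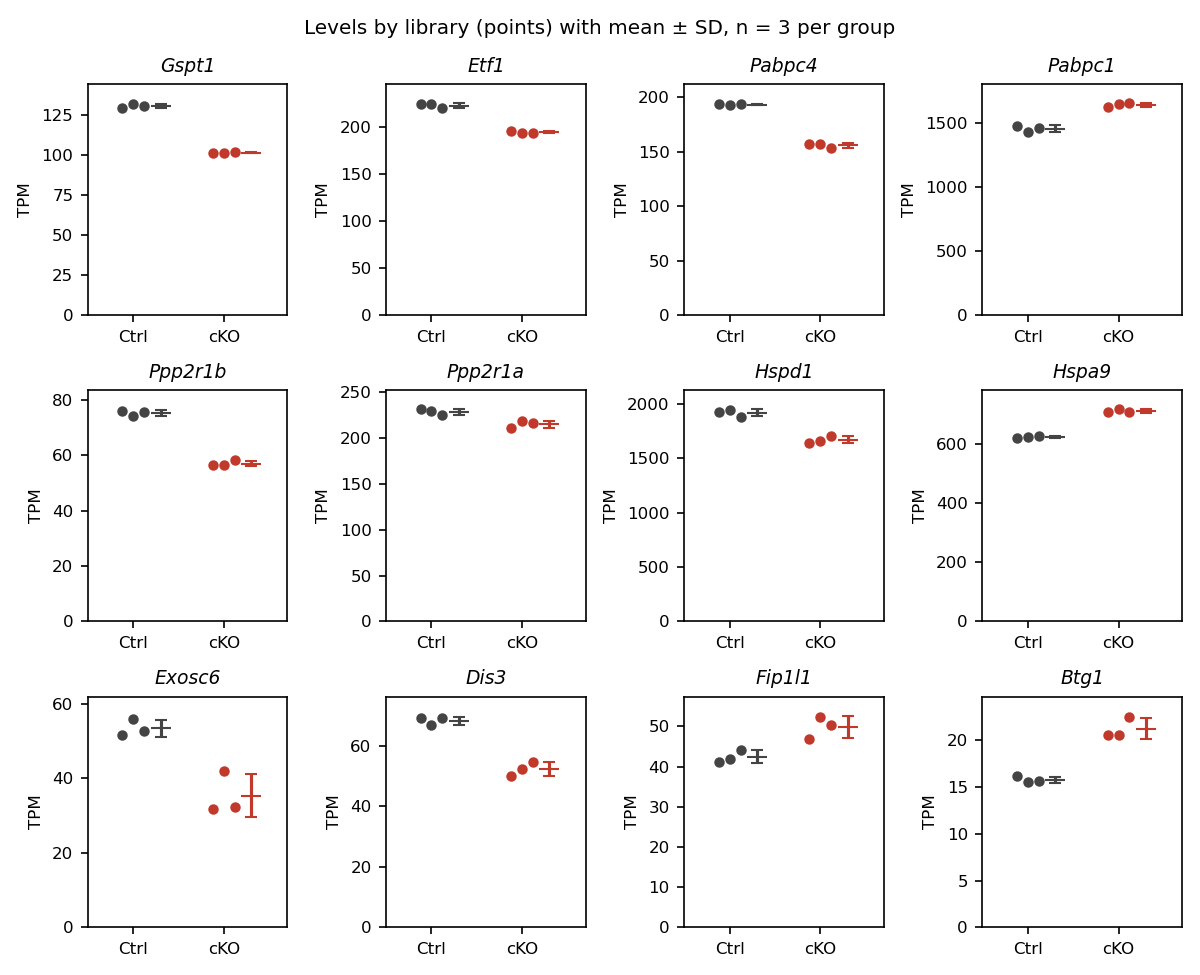
TPM of 12 genes (y axis, from 0) in each library of the 2 groups (x axis); points are libraries and the bar beside them is the mean ± SD of 3. Gspt1, Etf1, Pabpc4, Ppp2r1b, Ppp2r1a, Hspd1, Exosc6 and Dis3 are lower in every cKO library than in any Ctrl library, and Pabpc1, Hspa9, Fip1l1 and Btg1 are higher in every cKO library.

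All exosome genes among the 49 were lower, while Exosc3, Exosc4, Exosc9 and Exosc10 had no row. Its core is a ring with a cap, built from Exosc subunits, and carries the nuclease DIS3. The 11 genes of the exosome and its cofactors had a median log2 fold change of -0.19. Of these, 10 kept an adjusted p under 0.05 with RLE size factors, 9 with upper-quartile scaling and 8 with DESeq2. Over all rows, 1870 of 4641, 1730 of 4641 and 1510 of 4656 were called lower in the same settings. The summed level of the 11 was 1105, 1110 and 1091 TPM in Ctrl and 933, 927 and 926 TPM in cKO. Exosc6, a ring subunit whose gene (ENSMUSG00000109941) spans 111782971 to 111784296 on chromosome 8, plus strand, had the largest change of all 49 genes. It was at 51.7, 56.1 and 52.7 TPM in Ctrl and at 31.8, 42.0 and 32.4 TPM in cKO. The second cKO library stood between the other cKO libraries and Ctrl. The log2 fold change of Exosc6 was -0.58 ± 0.07 (SE; edgeR, adjusted p = 8.5e-09), and -0.73 without that library.

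The nuclease itself and the cap subunits followed. Dis3 was at 69.2, 66.8 and 69.1 TPM in Ctrl and at 50.1, 52.3 and 54.8 TPM in cKO, without overlap, and fell by 0.35 ± 0.03 (edgeR, adjusted p = 5.3e-12). The cap subunit Exosc2, at 167 ± 4.02 TPM in Ctrl and 132 ± 1.61 TPM in cKO (SD, n = 3 each), fell by 0.33 ± 0.03, and the cap subunit Exosc1 by 0.20 ± 0.04. Among the other ring subunits, Exosc8 fell by 0.19 and Exosc7 by 0.16, and Exosc7 lost its call with upper-quartile scaling and DESeq2. Exosc5, at -0.13 (adjusted p = 0.0437), was the weakest call: its groups overlapped, and it lost the call with RLE, upper-quartile and library-size scaling and with DESeq2. The nuclear helpers of the exosome were lower by similar amounts. The helicase Mtrex fell by 0.18, the poly(A) polymerase Tent4b, which tags nuclear RNA for the exosome, by 0.19, and the cofactors Mphosph6 and C1d by 0.21 and 0.16. The call of C1d was lost with DESeq2. Wdr61, a subunit of the Ski complex that feeds cytoplasmic RNA into the exosome, fell by 0.21 ± 0.03, from 215 ± 2.31 to 184 ± 5.52 TPM.

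PP2A and PP1 genes formed the other large group, with 9 of 11 lower and 2 higher and a median of -0.13. With RLE, upper-quartile scaling or DESeq2, or without Ctrl replicate 1, 6 of the 11 were called lower. Over all rows, of 4641 to 4656 tested, 1870 were lower with RLE and 1730 with upper-quartile scaling. The numbers were 1510 with DESeq2 and 2126 without Ctrl replicate 1. PP2A is a trimer of a scaffold, a catalytic and a regulatory subunit and acts far beyond RNA surveillance. The scaffold Ppp2r1b was at 75.9, 74.0 and 75.4 TPM in Ctrl and at 56.4, 56.3 and 58.1 TPM in cKO. It fell by 0.38 ± 0.03 (edgeR, adjusted p = 3.8e-14), while its more abundant paralog Ppp2r1a fell by 0.07 ± 0.02, from 228 to 215 TPM. Ppp2r1b thereby made up 24.8% ± 0.378 of the scaffold TPM in Ctrl and 20.95% ± 0.370 in cKO (SD, n = 3 each). The catalytic pair showed the same order with a smaller gap. Ppp2cb, the less abundant form, fell by 0.18 and Ppp2ca by 0.07, and the share of Ppp2cb was 26.9% ± 0.102 in Ctrl and 25.4% ± 0.328 in cKO. The calls of Ppp2r1a and Ppp2ca ended with RLE, upper-quartile scaling and DESeq2.

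The regulatory subunits of PP2A, which choose its substrates, went both ways. Ppp2r3c was at 68.5, 71.9 and 69.2 TPM in Ctrl and at 54.3, 53.5 and 55.2 TPM in cKO, and fell by 0.35 ± 0.04 (edgeR, adjusted p = 1.4e-10). The B55 subunits Ppp2r2d and Ppp2r2a fell by 0.20 and 0.13. Among the B56 subunits, Ppp2r5b rose by 0.33 ± 0.07 and Ppp2r5e by 0.16 ± 0.03, and Ppp2r5d was at -0.11 with overlapping groups. Ppp2r5b had the lowest level of the 49 genes, with 11.2, 11.0 and 10.8 TPM in Ctrl and 13.5, 14.2 and 13 TPM in cKO. Ppp2r5e was at 23.8, 23.1 and 23.0 TPM in Ctrl and at 25.6, 25.8 and 25.9 TPM in cKO. Both were higher in every cKO library than in any Ctrl library. Ppp2r5b took 18.2% ± 0.515 of the TPM that it shares with Ppp2r5d in Ctrl and 23.0% ± 0.836 in cKO. Ppp1cc, a catalytic subunit of PP1, fell by 0.14, from 239 ± 6.24 to 219 ± 12.5 TPM, a call that was lost with limma on both log2 FPKM scales.

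**Figure D4:**
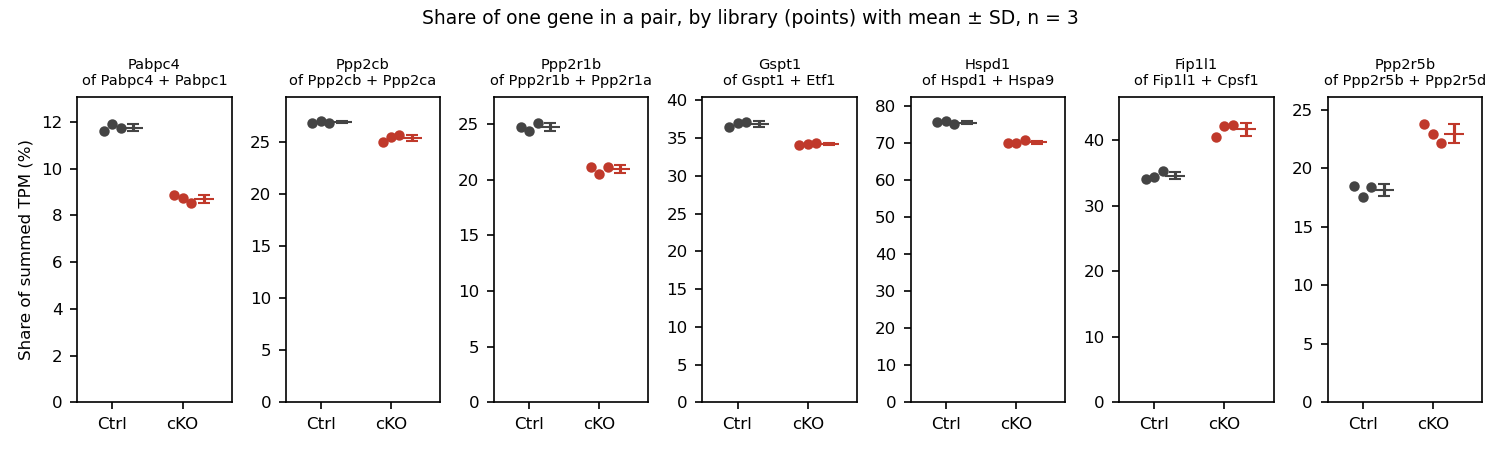
Share of one gene in the summed TPM of a pair (y axis, from 0, in percent) in each library of the 2 groups (x axis), for 7 pairs chosen after their values were seen; points are libraries and the bar is the mean ± SD of 3. The cKO points lie below the Ctrl points in the first 5 pairs, and above them for Fip1l1 with Cpsf1 and for Ppp2r5b with Ppp2r5d.

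The 7 pairs were chosen after their values were seen, from genes whose changes were already known, so their shares are a description with no test.

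Cleavage and polyadenylation genes were lower by smaller amounts. Of 10 members 8 were lower and 1 was higher, Cpsf6 at -0.05 did not pass (adjusted p = 0.262), and the median was -0.11. With RLE 5 of the 10 were called lower, beside 1870 of all 4641 tested rows. With upper-quartile scaling 3 were, beside 1730 of 4641, and with DESeq2 3, beside 1510 of 4656. With upper-quartile scaling and DESeq2 the share called lower was therefore not above that of all rows. Clp1, an RNA kinase of the cleavage machinery that also takes part in tRNA splicing, was at 25.1, 24.3 and 25.2 TPM in Ctrl and at 19.8, 20.1 and 17.2 TPM in cKO. It fell by 0.37 ± 0.07 (edgeR, adjusted p = 1.8e-05). The CstF subunits, which bind the RNA downstream of the cleavage site, fell by 0.27 (Cstf2) and 0.14 (Cstf3). Within the CPSF complex, which recognises the polyadenylation signal, the large subunit Cpsf1 fell by 0.19, Cpsf2 by 0.09 and the endonuclease Cpsf3 by 0.08. The poly(A) polymerase Papola fell by 0.07 and the nuclear poly(A)-binding protein Pabpn1 by 0.13. The calls of Cpsf2, Cpsf3 and Papola were lost with RLE, upper-quartile scaling and DESeq2, and those of Cstf3 and Pabpn1 with the latter pair. Fip1l1, the CPSF subunit that brings in the polymerase, was the exception, with 41.2, 41.9 and 44.2 TPM in Ctrl and 46.9, 52.3 and 50.2 TPM in cKO. It rose by 0.21 ± 0.03 (edgeR, adjusted p = 1.6e-06), and its share of the TPM of Fip1l1 and Cpsf1 was 34.6% ± 0.569 in Ctrl and 41.7% ± 0.981 in cKO.

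Deadenylation genes had 5 members, of which 4 fell. The scaffold of CCR4-NOT, Cnot1, fell by 0.12 ± 0.02 and Cnot9 by 0.16 ± 0.03, while Cnot10 (-0.11) and Cnot2 (-0.10) passed with adjusted p-values of 0.0304 and 0.0195 in edgeR and lost their calls with RLE, upper-quartile scaling and DESeq2. The catalytic subunits Cnot6, Cnot6l, Cnot7 and Cnot8 had no row. Btg1, an antiproliferative protein that binds the deadenylase and stimulates it, was the highest of the 49 fold changes. It was at 16.1, 15.5 and 15.7 TPM in Ctrl and at 20.5, 20.6 and 22.4 TPM in cKO, and all cKO libraries were above all Ctrl libraries. Its log2 fold change was 0.44 ± 0.04 (SE; edgeR, adjusted p = 6.6e-11), an increase of 36.0%. Of the 3 decapping genes, Lsm1, a subunit of the ring that binds deadenylated RNA, fell by 0.24 ± 0.05. Dcps, which clears the leftover cap, was at -0.14 (adjusted p = 0.0292) and lost the call with RLE, upper-quartile scaling and DESeq2. The helicase Ddx6, which activates decapping, was at -0.05 and did not pass (adjusted p = 0.196).

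A pair of mitochondrial chaperones completes the set. KEGG lists them under RNA degradation because bacterial relatives join an RNA-degrading complex; in mammals they are known for folding proteins inside mitochondria. Hspd1 (HSP60) was the most abundant of the 49 genes, at 1929, 1948 and 1885 TPM in Ctrl and at 1647, 1664 and 1708 TPM in cKO. Hspa9 (mortalin) was at 620.3, 620.6 and 625 TPM in Ctrl and at 707, 717 and 707 TPM in cKO. The groups were apart for both, in opposite directions. The gene body of Hspd1 overlaps that of Hspe1, and strand use in counting is not stated. Hspd1 fell by 0.18 ± 0.02 (edgeR, adjusted p = 6.4e-11) and Hspa9 rose by 0.21 ± 0.02 (adjusted p = 8.8e-13), so that Hspd1 went from 75.5% ± 0.376 of their summed TPM in Ctrl to 70.2% ± 0.463 in cKO (SD, n = 3 each).

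The 49 genes were spread over 19 chromosomes, with at most 6 on one of them, chromosome 8. They were expressed above the typical row, with a median of 80.1 TPM in Ctrl beside 38.0 TPM over all deposited rows. Of the 20 genes with at least 100 TPM in Ctrl, 18 were lower, beside 41 of all 49, and the others were Pabpc1 and Hspa9. The share of all rows at that level was not computed, so nothing is read from this count.

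Several small decreases lost their call when a library was left out, though none changed sign. Leaving out any library makes a group smaller and the test weaker, so a lost call does not tie a decrease to that library. A call was lost without Ctrl replicate 1 by Cnot10, Dcps, Ppp2ca, Ppp2r1a and Ppp2r5d, without Ctrl replicate 2 by Cnot10, Cnot2, Dcps, Exosc5 and Ppp2r5d, and without Ctrl replicate 3 by Cpsf3 and Exosc5. Without cKO replicate 1 it was lost by Cpsf3, Exosc5, Ppp2r1a and Ppp2r5d, and without cKO replicate 3 by Cnot10, Cnot2, Dcps, Exosc5 and Ppp2ca. The CCR4-NOT group then had 2 of 5 genes called lower without Ctrl replicate 2 and 2 without cKO replicate 3, as it did with RLE, upper-quartile scaling and DESeq2. Over all rows, 2141 of 4645 were lower without Ctrl replicate 2 and 2152 of 4643 without cKO replicate 3. With RLE, upper-quartile scaling and DESeq2 those numbers were 1870 of 4641, 1730 of 4641 and 1510 of 4656.

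The bases before the start sites were read for every member with a promoter entry, whichever way it moved. RefSeq promoters of build GRCm38.p6 were matched for 38 of the 49 genes (43 promoters), and the 250 bases before each start were searched on both strands. The CG dinucleotide occurred a median of 22 times in them, beside 16 in the 4860 promoters of all deposited rows and 6 in all 32851 promoters. The GC box GGGCGG was in 69.8% of the member promoters, 58.0% of those of all rows and 32.7% of all promoters. The NRF1 motif was in 20.9%, 8.91% and 3.74%, and the ETS motif CCGGAAG in 14.0%, 14.4% and 6.91%. The amino acid response element TGATGNAA was in 2.33% of member promoters and 2.57% of those of all rows, and the ER stress element and the interferon-stimulated element were in 0 of the 43 member promoters, beside 0.247% and 3.42% of those of all rows. The core TGACGT of cAMP and unfolded protein response sites was in 16.3%, 10.4% and 6.47%, Btg1 among them. The GC box, NRF1 and ETS motifs were chosen after the fold changes were known. A match is a description of letters and not of a bound site.

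The upstream stretches of Gspt1 and Pabpc4, which fell, and of Btg1, which rose, are shown 5′ to 3′ on the strand of the gene, with the motifs named above in capitals and without bases that GENCODE vM21 places in an exon of that strand. Gspt1 is chr16:11254446-11254575 (minus strand), Pabpc4 is chr4:123282661-123282824 (plus strand) and Btg1 is chr10:96616751-96617000 (plus strand), all on GRCm38.p6. The stretch of Gspt1 holds an ETS motif, that of Pabpc4 holds 3 GC boxes, and that of Btg1 holds 2 GC boxes and the TGACGT core, read on the opposite strand as ACGTCA. The stretch of Gspt1 is 130 of the 250 bases searched, and its promoter also has a GC box match outside the bases shown. Exosc6 had been picked for display too, but too short a stretch of its upstream bases lay outside exons.
Gspt1: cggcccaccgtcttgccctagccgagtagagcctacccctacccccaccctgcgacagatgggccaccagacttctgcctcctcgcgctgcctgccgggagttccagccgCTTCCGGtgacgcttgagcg
Pabpc4: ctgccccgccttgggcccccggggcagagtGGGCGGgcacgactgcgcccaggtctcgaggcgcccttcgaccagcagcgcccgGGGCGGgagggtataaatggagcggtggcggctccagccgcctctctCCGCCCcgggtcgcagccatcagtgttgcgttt
Btg1: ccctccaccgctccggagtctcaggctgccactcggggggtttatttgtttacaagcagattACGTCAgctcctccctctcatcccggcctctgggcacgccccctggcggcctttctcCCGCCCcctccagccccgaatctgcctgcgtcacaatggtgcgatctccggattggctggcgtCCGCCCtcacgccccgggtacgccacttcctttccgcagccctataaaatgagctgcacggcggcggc

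The pathway genes set aside by the annotation rule were also mostly lower. Of those 28 rows 23 were lower and 3 higher in edgeR, with a median log2 fold change of -0.18. Lsm6 fell by 0.59 ± 0.04 (SE), the helicase of the exon junction complex Eif4a3 by 0.25 and the nuclear cap-binding subunit Ncbp1 by 0.28. The 3 that rose were the export receptor relative Nxf7 (0.81), the glycolytic enzyme Pfkp (0.31) and the 5′ exonuclease Xrn1 (0.29 ± 0.04, from 13.7 to 16.5 TPM), named after their values were seen. Further rows of spliceosome, ribosome biogenesis and nucleocytoplasmic transport genes, none of them among the 49 or the 28, had 94.1%, 96.1% and 89.7% of their tested rows called lower, against 83.7% of the 49 genes. Their medians were -0.16, -0.25 and -0.18. The share of the 49 genes called lower was therefore not above that of these other RNA-processing groups; no test of the differences was made.

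**Figure D5:**
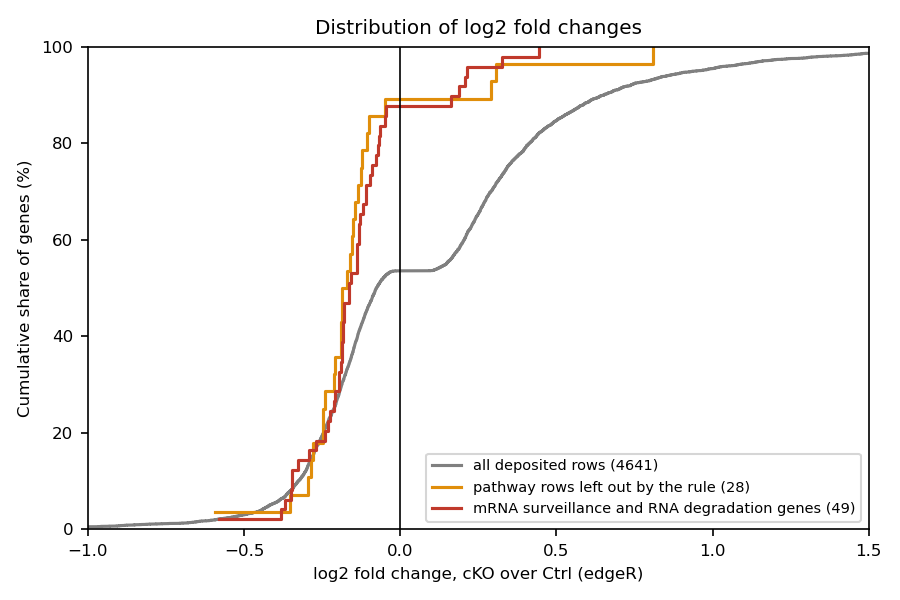
Cumulative share of genes (y axis, percent) by log2 fold change, cKO over Ctrl (x axis, drawn from -1 to 1.5) for the 49 genes, the 28 pathway rows set aside and all 4641 tested rows. Both pathway curves climb steeply below 0, with medians of -0.16 and -0.18 beside -0.08 for all rows, and all rows have the longer tail above 0.

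Other listed genes of RNA turnover that carry neither pathway name were mixed. Of 10 with a row, 5 rose, 4 fell and 1 did not pass, beside 46.4% higher and 50.2% lower over all tested rows. The split is near that of all rows, so nothing is read from it. The rising ones included the AU-rich element binding proteins Zfp36 (0.26 ± 0.06) and Zfp36l1 (0.33 ± 0.03), which direct bound mRNA to decay, the decapping coactivators Pnrc1 (0.33) and Pnrc2 (0.21), and the exosome-independent nuclease Dis3l2 (0.34 ± 0.08). Zfp36l2, a paralog of Zfp36l1, fell by 0.31 ± 0.03, from 96.8 to 77.1 TPM. The helicase gene Ddx39a fell by 0.37, Supv3l1 by 0.12 and Rbbp6 by 0.07, and Ppp1r10 was at -0.08 without passing (edgeR, adjusted p = 0.101).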

How the data were processed

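RNA sequencing data of 6 libraries, 3 Ctrl and 3 cKO, were grouped by the genotype named in each title. The authors used build mm39, Bowtie2 2.4.5 and DESeq2 1.34.0, per the submitters' processing notes, with a read counter not given in the sources used here. Per the file headers, the deposited table gives estimated read counts, FPKM, TPM and normalized counts per library, and the authors' log2 ratio, p-value and q-value. The deposited estimated counts are not normalized, and 11.1% are not whole (tolerance 1e-06). The deposited FPKM and TPM are length-scaled by the authors, and the rows hold 59.4% to 60.3% of each library's TPM. The authors' normalized counts are a signal in which each count, after rounding up, is divided by its library's size factor (0.987 to 1.02), as 100% of entries show. The authors' q-values match a Benjamini-Hochberg adjustment over 15835 genes, of which the 4656 rows are 29.4%. There were 8 columns of averages, which were not used, and 0 columns of other samples.

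Counts were rounded to whole numbers (the plan had allowed for this) and tested over the whole table with edgeR 4.0.16 (R 4.3.3), with TMM, filterByExpr (4641 rows left) and adjustment over 15835 genes, ranking every gene without a row behind those with one. Normalization and dispersion therefore rest on rows selected on this comparison. The authors' log2 ratios of the 49 genes were all of the same sign as those from edgeR and lay 0.04 lower, by the authors' deposited table. Genes were given library by library by a rule: Gspt1, Pabpc4, the 6 highest and 6 lowest fold changes and the extremes of TPM; Etf1, Tardbp and other names followed their roles. The members and lists were chosen with earlier results of these data known. In the exosome list, the symbol Mpp6 names an unrelated MAGUK protein in this table and was left out. Gene bodies of 21 of the 49 genes overlap another annotated RefSeq gene (GRCm38.p6), 3 of them one with a row (Hspd1 with Hspe1, Cnot1 with Setd6, Cpsf3 with Itgb1bp1), and strand use in counting is not given. Alternatives were other scalings, filters, DESeq2 1.42.0, limma 3.58.1 on log2 FPKM, a replicate block and each library left out. Python 3.11.15, SciPy 1.17.1 and matplotlib 3.10.9 did the rest.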

Additional observations from a re-analysis of the deposited data

How the results depend on the processing

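All 49 log2 fold changes kept their sign under every alternative run, though a scaling moves all genes together, and the 6 increases stayed called. Of the 49 genes, 32 kept the same side of the threshold throughout and 17 did not. The median of the 49 genes was -0.13 with RLE size factors, -0.12 with upper-quartile scaling, -0.13 with DESeq2, -0.21 with the authors' size factors and -0.17 on the log2(FPKM + 0.1) scale, and between -0.18 and -0.15 with each library left out. The number called lower was 27 with DESeq2, 43 with the authors' size factors, and 36 to 41 with each library left out. With the authors' size factors every one of the 4641 tested rows was called, 2155 higher and 2486 lower, so a call there says nothing about these genes. With each library left out, 2126 to 2246 of all rows were called lower. Over all rows, 2155 were higher and 2332 lower in edgeR, and 2168 and 1510 with DESeq2. The cause of these differences was not tested. With the replicate block 41 genes were lower and 6 higher and no call changed; same-numbered libraries did not deviate together (correlations 0.02, -0.08 and -0.04), so the numbers were not taken as pairs. The calls lost were of genes between -0.16 and -0.07 in the edgeR fit, where the SE of the 49 genes lay between 0.017 and 0.070. Both limma scales, the filters and library-size scaling gave 35 to 41 genes lower.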
